A study of Homo sapiens with 16 samples.

Results

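In USP18KO THP-1 cells, 103 of 151654 regions carried almost no H3K27ac although all WT libraries had signal there. The regions were chosen by their tags. A silenced region had at least 20 raw H3K27ac tags in each of the 4 WT libraries and at most 8 in each of the 4 USP18KO libraries. Of all regions, 57248 had at least 20 tags in each WT library and are called eligible, so the silenced regions were 0.18% of those that could have been chosen. They were weak in WT cells and mostly far from a TSS, and the genes with the nearest TSS numbered 89.

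The cells were THP-1, a line of monocytic origin established from a human acute leukemia. WT cells carried Cas9 only, and USP18KO cells were CRISPR edited and grown from sorted single cells, so that the effect of the genotype and the properties of a clone cannot be told apart. Which clone gave each library is not given in the sources used here. Cells of each genotype were left untreated or given IFNα (1000 U/ml, 6 h), with 2 H3K27ac ChIP-seq libraries in each of the 4 groups. A region is a 1000 bp window centred on a merged ATAC-seq peak, and its value is the number of tags in it, in steps of 0.5. Summed over all regions, the libraries held 9046141 to 10291674.5 tags in WT and 10841826.5 to 12935453.5 in USP18KO cells, so the genotype with the missing tags had the higher totals. CPM below are tags divided by the library total after edgeR's TMM scaling, times 1e+06. The study describes the libraries of a group as biological replicates, and p-values measure the spread between them.

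H3K27ac is an acetyl group on histone H3 that is set by the acetyltransferases p300 and CBP at active promoters and enhancers, and nucleosomes at repressed genes lack it. Enhancers far from genes are the more cell type specific class of such sites, and many lie in introns or in old transposable elements. A window loses its tags when the acetylation is erased, and it also loses tags when the DNA is missing from the cells or when reads can no longer be placed there. USP18 removes the ubiquitin-like protein ISG15 from other proteins and, through its binding to the IFN receptor and STAT2, restrains type I IFN signaling.

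Promoters of monocytic marker genes differed widely in level. Of 12 monocytic marker genes, 11 had a region within 1000 bp of the TSS, among them SPI1, the myeloid master regulator PU.1, at 69.9 CPM in WT and 115 CPM in USP18KO cells. CEBPA stood at 34.0 and 44.1 CPM, AZU1 at 81.6 and 55.6, CTSG at 32.9 and 14.5, and CSF1R at 1.96 and 2.51. MEIS1, at 0.514 and 0.678 CPM, was near the level of SOX2, a marker of another lineage. Of 6 markers of other lineages, only SOX2 had a TSS region, at 0.395 and 0.419 CPM. None of the 18 marker genes was the nearest gene of a silenced region. The region at the USP18 TSS, which does not test the deletion in the coding sequence, held 76 and 84 tags in untreated WT and 94 and 87.5 in untreated USP18KO cells.

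Sequences of windows with a high WT level follow as examples. They are not typical, since most silenced regions were weak in WT cells and far from a TSS. The central 200 bases are given for the top 3 within 1000 bp of a TSS and for 2 of the strongest over 3000 bp away, on the plus strand of hg38, with matches to the motifs searched below in capitals.
LINC02036 promoter, chr3:194250759-194250958: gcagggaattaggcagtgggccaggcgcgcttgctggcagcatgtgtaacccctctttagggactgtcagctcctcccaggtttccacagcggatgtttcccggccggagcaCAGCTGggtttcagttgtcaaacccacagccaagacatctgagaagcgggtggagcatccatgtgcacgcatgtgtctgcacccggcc
SHROOM2 promoter, chrX:9911508-9911707: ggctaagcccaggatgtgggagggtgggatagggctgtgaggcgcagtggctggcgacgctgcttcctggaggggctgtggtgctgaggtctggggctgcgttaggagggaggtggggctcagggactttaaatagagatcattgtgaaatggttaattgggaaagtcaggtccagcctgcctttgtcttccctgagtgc
MAGEB2 promoter, chrX:30215387-30215586: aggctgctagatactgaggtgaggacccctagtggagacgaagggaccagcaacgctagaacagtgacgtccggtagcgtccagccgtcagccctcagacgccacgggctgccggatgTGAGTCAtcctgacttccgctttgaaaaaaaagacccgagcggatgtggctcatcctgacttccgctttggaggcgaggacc
PLXNA4 intron (nearest gene LOC101928807), chr7:132354679-132354878: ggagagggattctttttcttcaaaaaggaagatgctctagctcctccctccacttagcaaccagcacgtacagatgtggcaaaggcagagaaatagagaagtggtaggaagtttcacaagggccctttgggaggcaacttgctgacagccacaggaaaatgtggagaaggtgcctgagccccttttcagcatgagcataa
Intergenic window near LINC02450, chr12:42744900-42745099: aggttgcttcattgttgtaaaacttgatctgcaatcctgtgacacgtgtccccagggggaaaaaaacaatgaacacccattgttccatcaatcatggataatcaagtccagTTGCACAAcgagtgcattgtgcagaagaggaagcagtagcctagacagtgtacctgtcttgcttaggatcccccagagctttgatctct

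The 3 promoter sequences had a G+C content of 58.5% to 60%, and the MAGEB2 stretch held 14 CpG and the LINC02036 stretch 8. The 2 distal sequences had 45.5% and 49% G+C and 1 to 2 CpG. The capitals mark an E-box in the LINC02036 stretch, an AP-1 match in the MAGEB2 stretch and a CEBP match in the LINC02450 stretch.

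The values that chose the regions are given as a description, with no test. In WT libraries the median silenced region held 30.5 to 35.5 tags and in USP18KO libraries 4.5 to 5.5. The mean over silenced regions was 4.46 to 5.24 tags in the USP18KO libraries, and these libraries held 6.29 to 7.59 tags in low-signal regions, the 25% of all regions with the fewest WT tags. The limit of 8 tags sets the first of these means, so they are given side by side only. The WT level had a median of 3.20 CPM, which only 10.6% of eligible regions were below, so that the silenced regions came from the weak end of the WT signal. The ratio of WT to USP18KO mean CPM had a median of 7.15, from 3.81 at GID4 (nearest gene DRG2) to 55.8 at RNVU1-11.

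**Figure D1:**
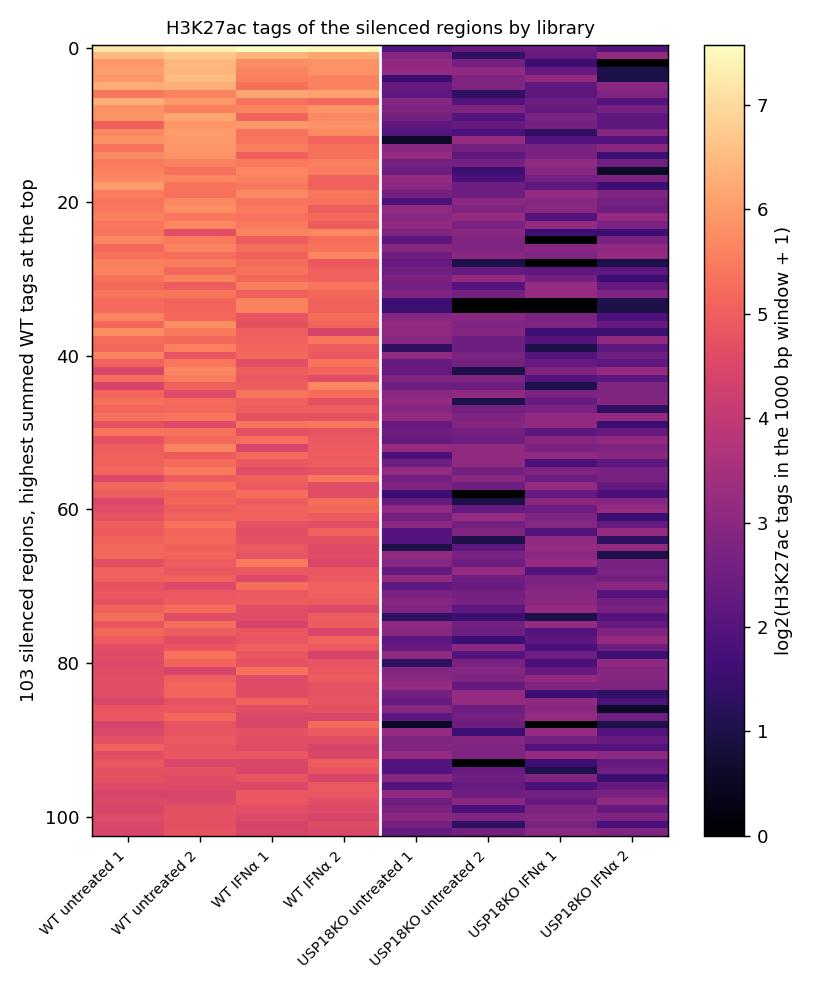
Tags of the 103 silenced regions (rows, ordered by their summed WT tags) in the 8 libraries (columns), coloured by log2(tags + 1). The 4 WT columns hold 20 to 190 tags and the 4 USP18KO columns 0 to 8, as the choice of regions requires.

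The limit of 8 raw tags decided which strongly reduced regions were chosen. Of the eligible regions, 486 had a WT to USP18KO ratio at or above the median of the silenced regions, and 434 of them exceeded 8 tags in some USP18KO library. At the TSS of CACNA2D1, which encodes the alpha-2/delta-1 subunit of voltage-gated calcium channels, a window 155 bp from the TSS held 485 to 627.5 tags in WT and 10.5 to 12.5 in USP18KO cells. That window was left out although its ratio was 53.0, and only a window in an intron 12802 bp downstream was chosen. Among the silenced regions just inside the limits, ADAMTS5 had 20 tags in its lowest WT and 8 in its highest USP18KO library, and UBE2U and LINC02104 had 20 and 7.5. Just outside, windows near GPR25, SNX7 and LINC02461 had 19.5 tags in their lowest WT and 8 in their highest USP18KO library. With the roles of the genotypes exchanged, 56 regions met the rule. Scaling all libraries to the same depth changed these counts to 173 silenced and 25 in the mirrored direction, and all 103 silenced regions were among the 173.

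**Figure D2:**
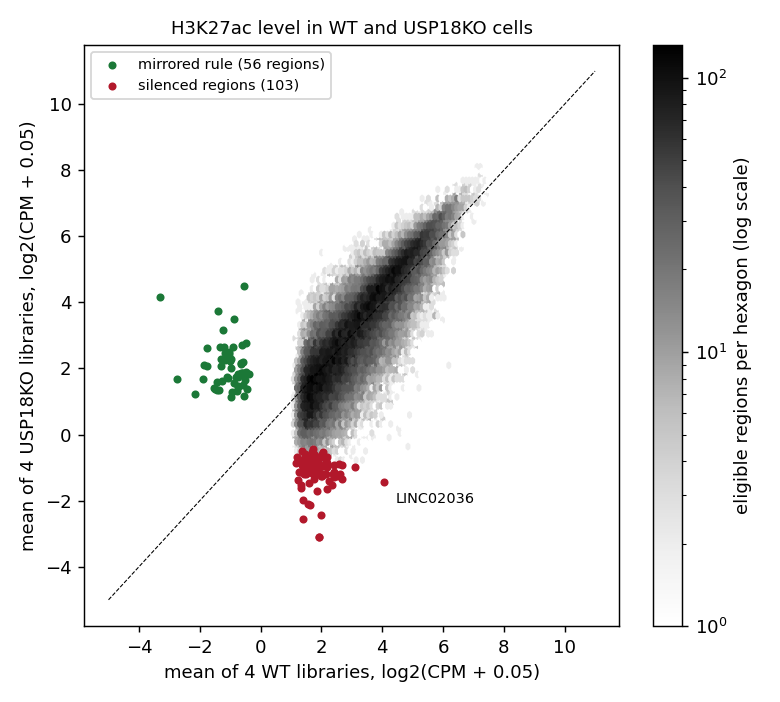
Mean H3K27ac of the 4 WT (x axis) and 4 USP18KO libraries (y axis), as log2(CPM + 0.05), for eligible regions (grey hexagons), silenced regions (red) and regions under the mirrored rule (green); the dashed line marks equal levels. The silenced regions lie at the weak end of the WT range, with LINC02036 at 16.7 CPM as the highest.

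Only 6 silenced regions, 5.83%, lay within 1000 bp of a TSS, against 30.5% of eligible regions and 15.3% of the 20120 eligible regions in the WT range of the silenced ones (2.39 to 5.92 CPM, their 5th to 95th percentile). The strongest was LINC02036, a long noncoding RNA gene on chromosome 3. Its window from 194250358 to 194251358, centred at -705 bp from the TSS, held 143 and 166.5 tags in untreated and 190 and 176 in IFNα treated WT cells. The USP18KO libraries held 3 and 4 tags untreated and 4.5 and 3 treated. The level was 15.0 ± 0.197 CPM in untreated WT (SD, n = 2) and 0.325 ± 0.0879 CPM in untreated USP18KO cells (SD, n = 2). The ratio over all libraries was 52.0 (95% exact counting interval 30.8 to 95.8). Intervals of such ratios come from the tags that chose the regions, so they are a description and no test.

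Of the other promoter windows, 3 were on chromosome X. SHROOM2, which encodes an actin-binding protein of cell shape, had 42.5, 49, 70.5 and 67 tags in the WT libraries (untreated first) and 3.5, 1.5, 3.5 and 6 in the USP18KO libraries. The centre of this window, at -765 bp from an annotated TSS, was also in an intron of SHROOM2 in GENCODE 44. MAGEB2, a cancer testis antigen gene normally active in germ cells, had 46.5, 39, 50 and 44 against 4.5, 2, 6.5 and 0.5 tags, at a window centred at -72 bp from the TSS with 40 CpG. ZNF630, a zinc finger gene, had 36, 31, 46 and 41 against 5, 3, 8 and 4 tags. Their ratios were 15.5, 16.5 and 8.45, and the lowest WT library exceeded the highest USP18KO library at least by the margin that the rule sets.

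WNT10B, a secreted WNT ligand gene on chromosome 12, held 40.5, 25, 48.5 and 50.5 tags in the WT and 6, 7, 2 and 2 in the USP18KO libraries, at -943 bp from the TSS. TCF4, which encodes an E-protein transcription factor that binds E-boxes, had the weakest promoter window, with 22, 22, 28 and 24 against 4.5, 7, 4 and 7.5 tags. It lay 576 bp downstream of an annotated TSS, in an intron of longer transcripts, and its ratio was 4.47 (95% exact counting interval 2.83 to 7.44).

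The other 97 silenced regions were over 1000 bp from a TSS, and 95 of the 103 were over 3000 bp away. The median distance was 67926 bp, against 10914 bp for eligible regions and 19403 bp for those at the same WT level. At over 100000 bp from a TSS lay 33.0% of silenced regions, 12.5% of eligible regions at the same WT level and 39.3% of the mirrored regions. The authors' table called 54 silenced regions intergenic and 40 intronic. In GENCODE 44, the centres of 62 were inside a gene, 49 of them in a protein-coding gene, with 53 in introns, 7 in exons and 2 in UTRs. The median G+C content was 40.9%, against 49.2% for eligible regions, 45.8% at the same WT level and 43.9% for the mirrored regions.

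The strongest distal window lay in an intron of PLXNA4, the gene of a receptor for semaphorins in axon guidance. It held 88.5, 103, 82.5 and 71 tags in the WT and 6.5, 1.5, 4 and 8 in the USP18KO libraries. A second silenced window of that intron held 40.5, 60.5, 46 and 38.5 against 7, 5, 5.5 and 7 tags. Between them, a stronger window with 265.5 to 311.5 WT tags was left out because its USP18KO libraries reached 10 tags. In this intron the USP18KO tags were low at strong and weak WT windows alike.

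An intronic window of DUSP16, which encodes a phosphatase of MAP kinases, held 33, 58.5, 61.5 and 56 tags in the WT and 3.5, 4, 5 and 3.5 in the USP18KO libraries. A window whose nearest TSS is that of TBK1, the kinase that activates IRF3, was in an intron of the neighbouring RASSF3 and held 56, 71, 33.5 and 51 against 5, 3, 5.5 and 3.5 tags. At CD180, a Toll-like receptor relative of B cells and myeloid cells, a window at -71935 bp from the TSS held 39.5, 37, 32.5 and 50 against 4.5, 7, 6 and 8 tags. Further distal windows of high WT level had CTAGE11P on chromosome 13, EPHA3 on chromosome 3 and LOC101928475 on chromosome 17 as nearest genes, with ratios of 10.9, 14.5 and 12.2. The EPHA3 window lay 1402286 bp from that TSS in centromeric alpha satellite. In it, 40.7% of the 32-base stretches occurred more than once in the genome, so its reads could be misplaced.

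By gene list, none of the 259 eligible regions of monocyte and granulocyte genes, the 134 of interferon stimulated genes, the 189 of tumour suppressor genes often deleted in leukemia, the 105 of homeobox genes and the 19 of clustered protocadherins was silenced. Of 29 eligible regions on the list made here for cancer testis antigen genes, 2 were silenced. Their nearest genes were MAGEB2 and MAGEE2, and only the MAGEB2 window was at a TSS. Whether MAGEE2 belongs to that class is not given in the sources used here. Axon guidance and synaptic adhesion genes had 3 of 235, with EPHA3 and EFNA5 as nearest genes, and these include the satellite window far from EPHA3. Zinc finger genes had 2 of 1169, at ZNF320 and ZNF630, and ion channel genes 1 of 355, at CACNA2D1. Since 0.18% of all eligible regions were silenced, these lists would hold few members at the overall share.

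The annotation named a repeat at 38 silenced regions, 36.9%, against 32.4% of eligible regions at the same WT level. LTR elements, remains of retroviruses, accounted for 12.6% of silenced regions and 9.38% of regions at the same WT level, and LINE elements for 11.7% and 10.7%. L1 elements made up 10.7% and 6.49%. ERVL-MaLR elements made up 7.77% of silenced regions and 4.08% of the regions at the same WT level. DNA transposons were named at 7 of the 103 silenced regions and at 1.86% of eligible and 5.36% of mirrored regions. These counts are small and were not tested.

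Sequence repeated in the genome can misplace reads. In 63 silenced regions, under 1% of the 32-base stretches of the window occurred more than once in the genome, and in 19 over 10% did. In 8 regions over 50% did, among them BMPER (90.3%), PPIAL4G (89.8%), RNVU1-14 (78.1%), E2F8 (76.3%) and the RNVU1-11 pair. The values of these 8 are uncertain, since reads of near-identical copies could be assigned to either. The RNVU1-11 pair, in a cluster of variant U1 small nuclear RNA genes, are overlapping windows with 74.1% and 79.8% of repeated stretches and share most tags. One window held 36.5, 34, 47.5 and 33 tags in the WT and 2, 0, 0 and 1 in the USP18KO libraries. Its ratio of 55.8 (95% exact counting interval 18.2 to 266) was the highest of all silenced regions. The next region on the chromosome held 29 tags summed over the 4 WT and 25 over the 4 USP18KO libraries.

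ATAC-seq peaks, which mark open chromatin, give a view of these regions that the choice did not use. The table lists which of 4 WT and 4 USP18KO ATAC-seq peak sets were merged into each region. No USP18KO peak set held 49 of the 103 silenced regions, 47.6%, against 7.09% of eligible regions and 9.07% of those at the same WT level. All 4 USP18KO sets held 33 of the 103, against 61.1% of eligible regions at the same WT level. In 21 silenced regions, 20.4%, all 4 WT sets and no USP18KO set held the peak, among them LINC02036, MAGEB2, SHROOM2, DUSP16 and CD180, and at the same WT level 1.60% of eligible regions had this pattern. A further 31 were in all 8 sets, as at HPRT1, GLI3 and PCDH15, so the windows were open in USP18KO cells and without H3K27ac. Regions in no USP18KO set had a median of 18.5 tags summed over the 4 USP18KO libraries, and regions in all 4 sets had 21. ATAC-seq values were not analysed here, and a peak set gives presence only. The sets are those of the merged peak at the centre, so another peak can lie in the same window. Of the 2 overlapping windows near LINC02450, for example, the first had 0 and the second 3 USP18KO sets.

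**Figure D3:**
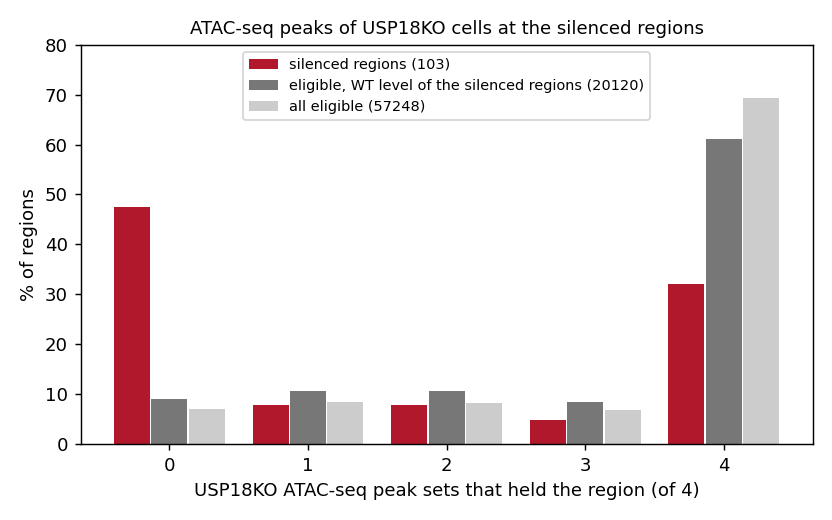
Share of regions (y axis, %) by the number of USP18KO ATAC-seq peak sets that held the region (x axis, 0 to 4), for the 103 silenced regions, the 20120 eligible regions at the same WT level and all 57248 eligible regions. No peak set held 47.6% of silenced regions, while in both comparison groups the bar at 4 sets is the highest.

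Along the chromosomes, silenced regions were spread with a few groups. Chromosome 12 had 14, chromosome 7 had 11, chromosome 5 had 10, chromosomes X and 1 had 9 each and chromosome 20 had 8. As a share of the eligible regions, chromosome X was highest at 0.611%, before chromosome 20 at 0.537% and chromosome 12 at 0.480%. Chromosomes 16 and 22 had none among 2140 and 1142 eligible regions. With windows that overlap the one before left out, 89 silenced regions remained among 42183 eligible ones. The next eligible region was also silenced for 4 of the 89, 4.49%, where the overall share was 0.211%. There were 81 single regions, 4 pairs and no run of 3 or more, and these counts rest on the limit of 8 tags, which also left out neighbours with few USP18KO tags, as at LAMP5, PLXNA4 and CACNA2D1.

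Silenced regions at most 500000 bp apart formed 13 groups with 36 members. A group of 6 lay upstream of LAMP5, the gene of a lysosome-associated membrane protein, on chromosome 20 from 9456744 to 9504575. The stretch lies around the 3' end of PLCB4, a phospholipase C gene. All 6 members had LAMP5 as nearest gene, at -57114 to -10283 bp from its TSS. The strongest held 51, 62.5, 40 and 52 tags in the WT and 3, 2.5, 1.5 and 6.5 in the USP18KO libraries, in an MLT1E1A element. The weakest by WT tags held 33, 36, 25.5 and 25.5 against 3, 1, 7.5 and 1.5 tags. Between the outermost members, all 7 tested regions that were not members had a negative log2 difference, and 6 were called lower in untreated USP18KO than in untreated WT cells (over 2-fold, adjusted p under 0.05, edgeR's quasi-likelihood test). Windows that overlap a member were not left out of such counts within groups. Some of the 7, as at 9457708 and 9491055, share tags with a member, so the counts are a description.

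The LAMP5 TSS itself was not chosen. Its window 239 bp from the TSS held 89, 68, 55.5 and 45.5 tags in the WT and 6.5, 11, 1.5 and 2 in the USP18KO libraries. The 4 windows nearest to LAMP5-AS1 had WT to USP18KO ratios of 2.95 at -895 bp from its TSS, 1.98 at -1541 bp, 2.93 at -8798 bp and 3.22 at -37005 bp. The window at -1541 bp held 53, 84.5, 62.5 and 52 tags in the WT and 28, 29, 50 and 29 in the USP18KO libraries. The outer windows held 29.5 and 25.5 tags summed over the 4 USP18KO libraries, where low-signal regions held 28.0 on average. The reduction thus ran from the PLCB4 introns past the LAMP5 TSS to windows nearest to LAMP5-AS1 and was not of the same size throughout.

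**Figure D4:**
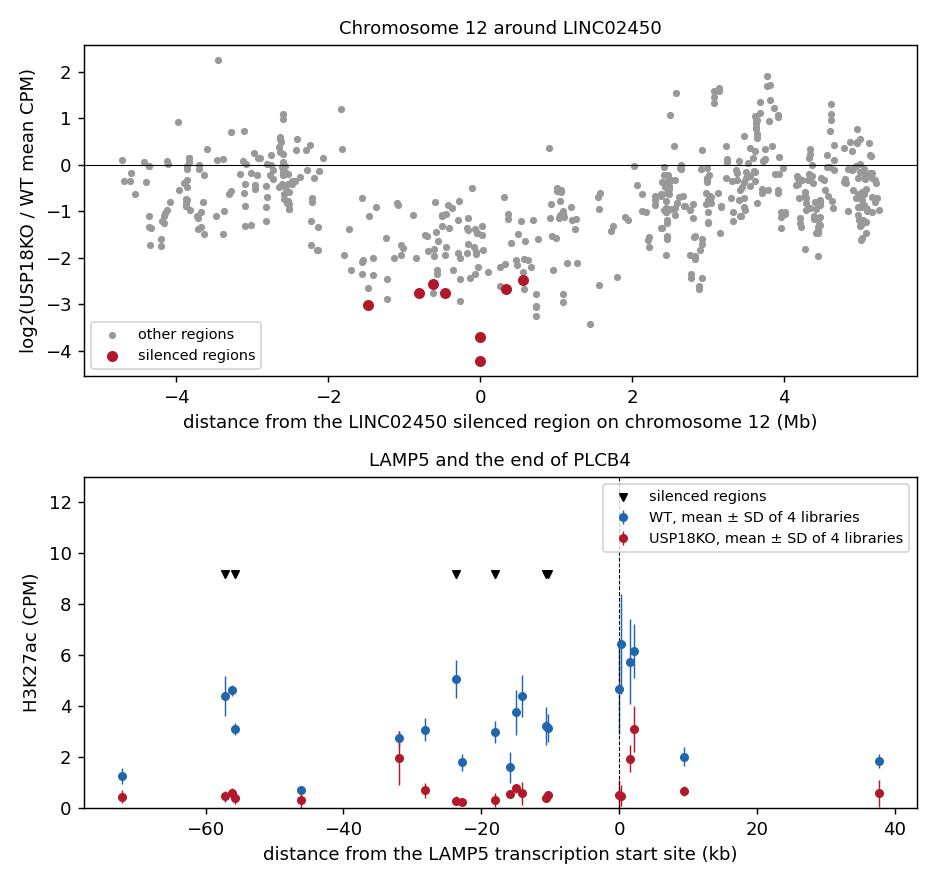
Upper panel, log2 ratio of USP18KO to WT mean CPM (y axis) by distance in Mb from the LINC02450 silenced region on chromosome 12 (x axis), with silenced regions in red and others in grey. Lower panel, mean ± SD of the 4 WT (blue) and 4 USP18KO libraries (red) in CPM (y axis) by distance in kb from the LAMP5 TSS (x axis, dashed line at the TSS), with triangles over the 6 silenced regions. Near LINC02450 all 54 tested regions of the group that were not silenced lie below 0. Upstream of LAMP5 the USP18KO values are low at the 6 silenced regions, as the choice of regions requires. A window between them, at 9481861, stood at 1.97 CPM in USP18KO and 2.74 CPM in WT cells.

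The widest group was on chromosome 12 from 41932154 to 43313783, with 7 members near LINC02400, GXYLT1, MIR7851, LINC02450 and LINC02461. The strongest members were the 2 overlapping windows near LINC02450, a noncoding RNA gene. One held 66, 84, 48.5 and 57 tags in the WT and 8, 7.5, 4 and 1 in the USP18KO libraries, and the other 60.5, 86.5, 54.5 and 57.5 against 7.5, 5, 2 and 0 tags. Of 54 tested regions between the outermost members that were not silenced, 54 had a negative log2 difference between untreated USP18KO and WT cells, 41 passed the test and the median was -1.80. In this group 10 regions at a TSS that were not silenced had a median WT to USP18KO ratio of 2.58, beside 3.24 for all regions there that were not silenced.

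The reduction on chromosome 12 was deepest from 41 to 44 Mb. In successive windows of 1 Mb, the median log2 difference of tested regions that were not silenced was -0.41 at 40 to 41 Mb, -1.79 at 41 to 42 Mb, -1.73 at 42 to 43 Mb, -1.94 at 43 to 44 Mb, -1.10 at 44 to 45 Mb and -0.91 at 45 to 46 Mb. Further out it was smaller but did not end, at -0.49 from 38 to 39 Mb, -0.63 from 39 to 40 Mb, -0.32 from 46 to 47 Mb and -0.58 from 47 to 48 Mb, where 91 of 104 regions were below 0. From 41 to 45 Mb, every tested region was lower in USP18KO cells, namely 10, 44, 31 and 8 regions in the 4 windows.

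Other groups were smaller. On chromosome 5, a group of 3 lay in introns of EBF1, the gene of a B cell transcription factor, over 351747 bp. One, in intron 5 of EBF1, held 34, 36, 31 and 30.5 tags in the WT and 6.5, 5, 5.5 and 1.5 in the USP18KO libraries, a ratio of 7.50. In this group 6 of 9 tested regions between them passed the test for a lower level in untreated USP18KO cells. On chromosome 7, the group at CACNA2D1 had 4 of 5 such regions, where the tested window at 82430233 shared tags with an overlapping silenced window. On chromosome 17, MGC12916 and LOC101928475 formed a pair with 8 of 11. At APEH, FAM3C and RNVU1-11 the pair was 2 overlapping windows of the same stretch of DNA. The 2 APEH windows lay in an exon of BSN, the gene of a presynaptic scaffold protein.

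To see whether the surroundings were lower too, regions within 100000 bp of a silenced region that were not silenced and did not overlap one were compared between untreated USP18KO and WT cells (edgeR's quasi-likelihood test over all 123276 tested regions, over 2-fold and Benjamini-Hochberg adjusted p under 0.05). Of 698 such regions, 261 were lower, 37.4%, and 9 higher, while 10.8% of all tested regions were called lower. Within 20000 bp, 90 of 165 were lower, 54.5%, and within 500000 bp 671 of 2991, 22.4%. The median log2 difference was -0.88 within 100000 bp and -0.02 over all tested regions. Around silenced regions outside the low bins described next, 150 of 491 regions were lower, 30.5%.

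Copy number was not measured, and the input libraries were not analysed here. Low-signal regions give the nearest value, since their tags are taken here as background, which depends on the amount of DNA. Over all 5 Mb bins with at least 20 low-signal regions, 565 in number, the ratio of USP18KO to WT tags in these regions, relative to the same ratio over all low-signal regions, had a median of 0.959. The 29 bins of the lowest twentieth, at 0.754 or less, are called low bins. They held 24 of the 103 silenced regions, 23.3%, and 4.00% of eligible regions, and 11 of the 29 held at least 1. The other 79 silenced regions were outside them. No mirrored region lay in a low bin. The mirrored rule takes regions with few WT and many USP18KO tags, and those that count as low-signal raise the ratio of their own bin. The choice of mirrored regions thus bounded this outcome, and nothing is drawn from it.

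The lowest bins were on chromosomes 17 and 12. At 10 to 15 Mb of chromosome 17 the relative ratio was 0.470, with 3 silenced regions near HS3ST3A1, MGC12916 and LOC101928475. At 40 to 45 Mb of chromosome 12 it was 0.491, with 8 silenced regions. All 4 bins of 17p from 0 to 20 Mb were among the 6 lowest. Low-signal regions of 17p held 4.87, 5.79, 4.93 and 5.26 tags in the WT and 4.05, 3.90, 4.16 and 4.30 in the USP18KO libraries. Over all low-signal regions the WT libraries held 4.63 to 5.34 and the USP18KO libraries 6.29 to 7.59, so all 4 USP18KO libraries were low on 17p.

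On 17p, regions at a TSS were lower as well. Of 341 tested there, 82.4% had a negative log2 difference between untreated USP18KO and WT cells, with a median of -0.36, against 27.6% and a median of 0.34 over all TSS regions. In the chromosome 12 bin, 21 TSS regions had a median of -0.91. In the last 5 Mb of chromosome 11, with the silenced regions near LINC02551 and SNX19, the relative ratio was 0.594 and 18 TSS regions had a median of -0.38.

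In none of these bins did the tags disappear. On 17p the low-signal regions held 16.4 tags summed over the 4 USP18KO libraries (95% exact counting interval 15.9 to 16.9), against 28.0 over all low-signal regions. In the chromosome 12 bin they held 14.9 (95% exact counting interval 13.7 to 16.1). The relative ratio within 1 Mb of a silenced region was lowest near LINC02400 at 0.255, among the 96 silenced regions with at least 10 low-signal regions that close. It was under 0.6 for 10 of these 96 silenced regions and had a median of 0.863. The LAMP5 bin stood at 0.769 and the PLXNA4 bin at 0.953, and the bin at 55 to 60 Mb of chromosome 17, with 2 silenced regions, at 1.26. How far fewer copies, less open chromatin or the loss of acetylation each account for the low tags cannot be told apart here.

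**Figure D5:**
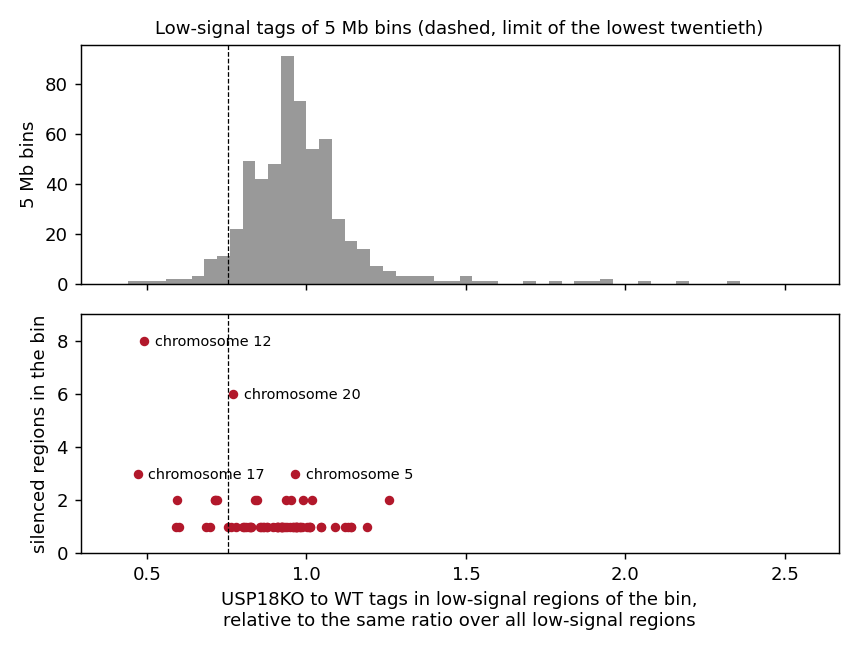
Relative USP18KO to WT ratio of low-signal tags in 5 Mb bins (x axis), with the number of bins (upper panel) and the number of silenced regions in each bin that has any (lower panel); the dashed line marks the limit of the lowest twentieth of bins. The bins with 8 silenced regions on chromosome 12 and 3 on chromosome 17 are far to the left. Other bins with silenced regions range from close to the limit, as on chromosome 20 with 6 at 0.769, to above 1.

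Since the rule held all 4 USP18KO libraries to at most 8 tags, with or without IFNα, it bounded what IFNα could show there. Summed over silenced regions, with 1 window per chain of overlapping windows, untreated USP18KO libraries held 44.2 and 44.4 CPM and IFNα treated ones 42.6 and 41.2 CPM. In WT cells the sums were 370 and 355 CPM untreated and 336 and 344 CPM with IFNα. The groups thus differed by genotype by the choice of regions, and treated and untreated libraries were close.

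In WT cells, none of the 103 silenced regions passed the test for IFNα in either direction, where 0.343% of all tested regions were called higher and 0.0389% lower. DESeq2 called none as well. At an unadjusted p under 0.05, 5542 of all 123276 tested regions were higher and 5471 lower. Of the 103 silenced regions, 4 were higher and 8 lower at that limit. The 4 with the smallest p among the higher ones were SHROOM2, FZD6, WNT10B and APEH, with log2 differences of 0.65 ± 0.24, 0.80 ± 0.32, 0.64 ± 0.29 and 0.71 ± 0.33 (SE, n = 2 against 2). Among the lower ones, LOC101928475, EPHA3 and ANKRD7 had log2 differences of -0.76 ± 0.24, -0.80 ± 0.26 and -0.84 ± 0.30. The smallest adjusted p of edgeR's quasi-likelihood test among them was 0.158.

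In USP18KO cells, IFNα raised 7.12% and lowered 4.41% of all tested regions, and among the silenced regions it raised none and lowered 1. That was a window near LINC02450, with 7.5 and 5 tags untreated and 2 and 0 with IFNα, at a log2 difference of -2.56 ± 0.86 (SE, n = 2 against 2, adjusted p = 0.0199, edgeR's quasi-likelihood test), and it is named here after its values were seen. At an unadjusted p under 0.05, 20476 of all 123276 tested regions were higher and 19372 lower. Of the 103 silenced regions, which the rule capped at 8 tags, 2 were higher and 5 lower at that limit. DESeq2 called none of the silenced regions. The call was also lost without untreated USP18KO replicate 1 (adjusted p = 0.138) and without IFNα treated USP18KO replicate 2 (adjusted p = 0.221).

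Short sequences that transcription factors bind were searched on both strands in the central 200 bp of each window. For the myeloid factors these were GAGGAAGT for PU.1, TGTGGTTT for RUNX and, for CEBP, TTGCGCAA and the wider TTGCNNAA, which includes it. For factors that respond to signals they were TGACTCA for AP-1, TTTCNNTTT for the ISRE, GGAATTTCC for NF-kB and TGACGTCA for the CRE. The others were AGGGGGCG for the CTCF core, GCGCATGCG for NRF1, TATTTTTAG for MEF2 and, among the short ones, AGATAAG for the GATA factors. The E-box was searched as CAGCTG and the MYB site as TAACTG. The wider CEBP match was in 28.2% of silenced regions, in 18.6% of eligible regions at the same WT level and in 16.4% of all regions. AP-1 was in 16.5%, 11.7% and 10.0%, MYB in 16.5%, 8.66% and 7.99%, and RUNX in 9.71%, 3.66% and 3.21%. PU.1 was in 4.85%, 7.50% and 6.41%, and ISRE, the element of IFN response genes, in 5.83%, 13.9% and 12.8%. The RUNX share is 10 regions and the ISRE share 6, and the shares were not tested.

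In the whole 1000 bp window the RUNX match was in 17.5% of silenced and 9.91% of the regions at the same WT level, and the wider CEBP match in 60.2% and 45.7%. ISRE was in 49.5% and 48.9% of them, so that the difference in share was smaller over the whole window than at its centre. E-box matches were in 40.8% and 41.0% of them, and at the centre in 15.5% and 14.0%. The remaining motifs were in at most 1 silenced region at the centre.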

How the data were processed

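Counts were analysed for 8 H3K27ac ChIP-seq libraries, 2 for each of the 4 groups. The deposited values are expected counts: raw tags in steps of 0.5 (52.2% whole numbers) for each 1000 bp window, not normalized. The authors aligned reads to hg38 with Bowtie2 and counted raw tags with HOMER. The deposited table also holds a HOMER score, which was not used, and the names of the ATAC-seq peak sets merged into each region, used only to count sets. The input libraries were not analysed here. Of value columns, 0 belonged to no sample.

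Silenced regions were found on the tags as deposited. For tests, tags were rounded to whole counts, and a region was tested if 2 or more of the 8 libraries reached 10 counts (123276 regions, with all 103 silenced ones). Fits used edgeR 4.0.16 (TMM, 1 mean per group, quasi-likelihood test, Benjamini-Hochberg adjustment) in R 4.3.3, with DESeq2 1.42.0 as an alternative. The common biological coefficient of variation was 0.0747. Calls needed a change over 2-fold and an adjusted p under 0.05. The fit was tested on simulated data.

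The members, gene lists and motifs were chosen with earlier results of these data known. Genes were named by fixed rules: the 12 with the most silenced regions, the highest WT levels at and away from a TSS, the smallest p for IFN in WT cells, members of the gene lists, and regions at the limits of the rule. PLXNA4, CACNA2D1 and LAMP5 neighbours, and regions named for ATAC-seq sets or repeats, were chosen after their values were seen. Sequences and positions are from hg38 and GENCODE 44. Exact 95% intervals treat tags as independent counts and cover counting error only. For ratios of silenced regions they do not allow for the choice of regions by the same tags. The mirrored rule, bins, low bins, other grouping distances and repeat measures were added after seeing the data. One gene that these rules name is not reported here.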

Additional observations from a re-analysis of the deposited data

Results flagged for a closer look

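At the WNT10B window the test of a difference in IFNα response between genotypes passed the threshold, on values that the choice of regions had limited to at most 8 tags in USP18KO cells, so that a rise there could hardly appear. It is given as a description. In WT cells the log2 difference was 0.64 ± 0.29 (SE, n = 2 against 2), with 40.5 and 25 tags untreated and 48.5 and 50.5 with IFNα. In USP18KO cells the log2 difference was -1.65 ± 0.75, with 6 and 7 tags untreated and 2 and 2 with IFNα, so the direction there rests on few tags. The difference of the log2 differences was -2.29 ± 0.80 (adjusted p = 0.0456, edgeR's quasi-likelihood test over all tested regions), and WNT10B was the only silenced region at this threshold, while 3 had an unadjusted p under 0.05. How many of all tested regions reached these limits is not given here, so the counts of silenced regions cannot be set against an overall share. WNT10B was not called without the filter on low counts (adjusted p = 0.0621). Leaving out any 1 library ended the call (adjusted p from 0.0629 to 0.171), except untreated WT replicate 1 (adjusted p = 0.0194). With library totals in place of TMM the adjusted p was 0.0288.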

How the results depend on the processing

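The number of silenced regions depended on the limits. With at least 30 and at most 5 tags it was 6, with at least 15 and at most 10 it was 499, and with tags scaled to the mean library total it was 173. The mirrored rule gave 56 regions, and 25 with scaled tags. Leaving out 1 library gave 109 to 182 silenced regions, the highest without untreated USP18KO replicate 1 and 162 without replicate 2. There were 0 silenced regions in runs of 3 or more under all settings tried, so the planned tags inside runs could not be computed and 5 Mb bins took their place. Silenced regions followed by another numbered 8 in place of 4 when overlapping windows were counted. Groups held 22 silenced regions within 100000 bp in place of 36 within 500000 bp. The low bins held 12 silenced regions in place of 24 with 2 Mb bins and 9 with the lowest 10% of regions as low-signal.

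For IFNα in USP18KO cells, the regions called lower numbered 0 with DESeq2, 3 with library totals and 0 with only the 4 libraries compared, in place of 1. Leaving out 1 library gave 0 to 3 lower and 0 to 1 higher. Regions beside silenced regions that were lower numbered 90 within 20000 bp, 671 within 500000 bp and 150 around silenced regions outside the low bins, in place of 261. For IFNα in WT cells, no setting called a silenced region. The replicate numbers did not pair the libraries (correlations of deviations of 0.0124 for IFN in WT, 0.0578 for IFN in USP18KO and 0.0055 for untreated genotypes), and the fit with a replicate block gave 0 higher and 0 lower for IFNα in WT cells, 0 and 1 in USP18KO cells and 260 lower regions beside silenced regions. The causes of these changes were not tested. With a median of 4.5 to 5.5 tags in a USP18KO window, small differences among the USP18KO libraries were not detectable at this depth.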
